A study of Homo sapiens with 4 samples.

Results

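The 4 ID genes, ID1, ID2, ID3 and ID4, encode the inhibitors of DNA binding and were followed across all arrays of an experiment on early BMP and WNT responses in human embryonic stem cells. They were chosen by name, as every probe that the array annotation assigns to ID1, ID2, ID3 or ID4. This gave 6 of 47321 probes and 4 of 20046 gene symbols: 2 probes each for ID1 and ID2, and 1 probe each for ID3 and ID4. The cells were of the established line HuES6. They had been grown in medium conditioned by mouse feeder cells, replated on Matrigel, and moved to a serum replacement medium, in which every group received FGF2 (20 ng/ml) as well as Activin A (5 ng/ml). They were then exposed for 4 h to 20 ng/ml BMP4 together with 5 µM CHIR99021, to BMP4 alone, to CHIR99021 alone, or to neither. BMP4 is a ligand of the BMP receptors, and CHIR99021 inhibits the kinase GSK3 and thereby activates canonical WNT signaling without a WNT ligand.

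ID proteins carry a helix-loop-helix domain for dimerization but lack the basic region that contacts DNA. They bind the E proteins, the broadly expressed partners of tissue-specific basic helix-loop-helix (bHLH) factors, and so keep such pairs off their E-box sites. In embryonic stem cells ID genes are known as direct targets of SMAD1 and SMAD5 downstream of BMP receptors, and in mouse ID proteins restrain neural differentiation.

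Each group held 1 array of total RNA (Illumina HumanHT-12 V4), so no difference given here has a replicate check and no p-value was computed between groups. Between 15980 and 16762 probes per array were detected, meaning a detection p below 0.01 against negative control probes. All 9 measured markers of pluripotent stem cells, among them POU5F1, NANOG and SOX2, were detected on all 4 arrays, with mean normalized log2 intensities between 9.94 and 10.01, and none of 5 blood markers was detected on any array. Of 7 fibroblast markers 2 or 3 were detected per array, of 5 endothelial markers 2 or 3, of 4 neural markers 1 or 2 and of 5 endoderm or liver markers 1 or 2. No measured member of these 6 lists differed by 1 or more on the log2 scale in any comparison. The part of such cells in the results was not tested, and in RNA from whole cultures fewer cells that express a gene and less of its RNA per cell cannot be told apart.

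The regions around the transcription starts of ID1, ID2 and ID3 are shown because these paralogs gave different patterns under the 2 signals. Each runs from 250 bases before the start to 50 bases after it (RefSeq, GRCh38.p14), and spans chr20:31605039-31605338 on the plus strand for ID1, chr2:8681806-8682105 on the plus strand for ID2 and chr1:23559452-23559751 on the minus strand for ID3. Capitals mark matches on either strand to GGCGCC or GTCTG, which SMAD proteins bind, to CTTTGAA or CTTTGAT, which TCF/LEF factors bind, or to the E-box CANNTG, the site of the bHLH pairs that ID proteins disrupt.
ID1: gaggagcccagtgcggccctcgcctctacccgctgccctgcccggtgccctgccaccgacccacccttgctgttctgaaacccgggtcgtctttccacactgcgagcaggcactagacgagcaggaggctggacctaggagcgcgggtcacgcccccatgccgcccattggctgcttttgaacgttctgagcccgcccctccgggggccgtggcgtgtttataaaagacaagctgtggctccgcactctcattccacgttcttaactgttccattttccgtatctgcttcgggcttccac
ID2: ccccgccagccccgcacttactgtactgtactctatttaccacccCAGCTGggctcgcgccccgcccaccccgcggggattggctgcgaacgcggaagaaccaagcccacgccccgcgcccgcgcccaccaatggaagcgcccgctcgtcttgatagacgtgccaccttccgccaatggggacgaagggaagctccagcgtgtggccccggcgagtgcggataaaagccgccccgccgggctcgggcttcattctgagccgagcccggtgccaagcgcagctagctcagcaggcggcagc
ID3: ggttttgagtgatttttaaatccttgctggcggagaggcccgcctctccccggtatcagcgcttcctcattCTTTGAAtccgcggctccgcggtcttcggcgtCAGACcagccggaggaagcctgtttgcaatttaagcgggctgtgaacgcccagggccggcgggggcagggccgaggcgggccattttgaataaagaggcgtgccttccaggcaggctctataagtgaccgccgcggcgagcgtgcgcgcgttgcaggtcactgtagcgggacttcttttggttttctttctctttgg
The ID1 window held none of these motifs. The ID2 window held the E-box CAGCTG at position -205 from the start, and the ID3 window held CTTTGAA at -179 and CAGAC, the reverse complement of GTCTG, at -147. The ID4 window (chr6:19837120-19837419, plus strand) held CAGAC at -205 and CAGCTG at -21. Such letters are common: among 35116 windows of this length, 68.7% held CANNTG, 45.3% GTCTG, 19.2% GGCGCC, 4.43% CTTTGAA and 2.62% CTTTGAT. A match describes the letters only, and control regions outside the windows were not read. On the opposite strand, the windows of the antisense gene ID2-AS1 overlap that of ID2 (chr2:8681814-8682113 for one of them).

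ID1 was detected on all arrays and was highest wherever BMP4 was present. Its main probe, ILMN_1664861, had a raw intensity of 5127 with both treatments, 4904 with BMP4, 439 with CHIR99021 and 789.5 in untreated cells. After background correction and normalization the log2 intensities were 12.38 with both treatments, 12.36 with BMP4, 8.43 with CHIR99021 and 9.43 in untreated cells. The arrays with BMP4 stood together at the top, and CHIR99021 alone gave the lowest value.

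ID2 was highest with both treatments and close to background in untreated cells. Its main probe, ILMN_2086095, had raw intensities of 640.5 with both treatments, 164 with BMP4, 198 with CHIR99021 and 106 in untreated cells. The normalized log2 intensities were 9.23 with both treatments, 6.64 with BMP4, 6.94 with CHIR99021 and 5.05 in untreated cells. Each single treatment lay between untreated cells and the combination. In untreated cells ID2 was barely detected, with a detection p of 0.0039, and the lowest raw intensity of any detected probe on that array was 103.

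ID3 was highest with both treatments, followed by BMP4 alone and then by CHIR99021 alone. Its probe, ILMN_1732296, had raw intensities of 4336 with both treatments, 3253 with BMP4, 1513 with CHIR99021 and 789 in untreated cells. The normalized log2 intensities were 12.16 with both treatments, 11.75 with BMP4, 10.38 with CHIR99021 and 9.43 in untreated cells. All 3 treated arrays lay above untreated cells.

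ID4 was not detected on any array. Its probe, ILMN_1721758, had raw intensities of 82.1 with both treatments, 84.5 with BMP4, 79.0 with CHIR99021 and 85.5 in untreated cells, with detection p from 0.521 to 0.91, and the authors' normalized value was 0 on all 4 arrays. No fold change is given for it. ID1, ID2 and ID3, by contrast, were each detected by their main probe on all 4 arrays, so none of them entered the comparisons through its high group alone.

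**Figure D1:**
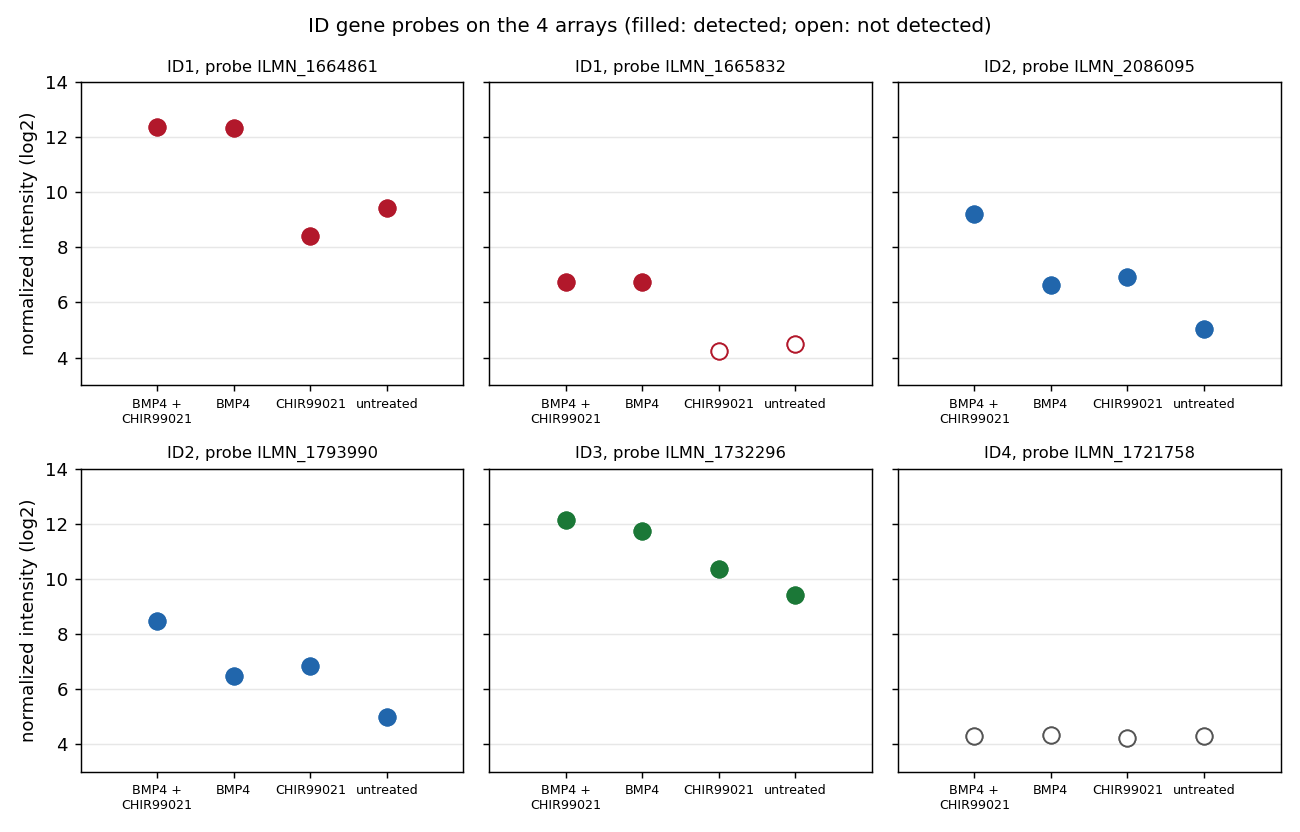
Normalized intensity (log2, y axis) of the 6 ID probes on the 4 arrays (x axis, 1 array per group), with filled points where the probe was detected and open points where it was not. Both ID1 probes are high on the arrays with BMP4, both ID2 probes are highest with both treatments, at 9.23 and 8.47, and ID4 is not detected on any array.

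The second probes of ID1 and ID2 gave the same order of arrays where they were detected. For ID1, ILMN_1665832 had normalized log2 intensities of 6.74 with both treatments, 6.73 with BMP4, 4.22 with CHIR99021 and 4.50 in untreated cells. Its detection p was 0.875 with CHIR99021 and 0.139 in untreated cells, so it was not detected on either array and has no usable value for CHIR99021 alone. For ID2, ILMN_1793990 had 8.47 with both treatments, 6.48 with BMP4, 6.84 with CHIR99021 and 4.99 in untreated cells, and was detected on all 4 arrays.

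BMP4 alone was followed by higher ID1, ID3 and ID2. ID1 was 7.61-fold higher than in untreated cells (log2 difference 2.93), ID3 5.00-fold (2.32) and ID2 3.01-fold (1.59). By size they ranked 2, 3 and 4 from the top among 10864 genes detected on either array. A gene is called higher or lower here where it was detected on an array compared and differed by at least 1 on the log2 scale, and all 3 measured ID genes were called higher, where 0.203% of all measured genes were higher and 0.0920% lower. The median difference over all measured genes lay between -0.01 and 0.02 in every comparison.

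These differences were larger than the scatter of genes of like intensity. Over 543 genes of similar mean intensity in each case, the robust SD of the BMP4 difference was 0.207 around ID1 and ID3 and 0.248 around ID2. This is a scatter of genes between 2 arrays and not the error of a replicate. The second ID2 probe gave 2.81-fold. The ID2 call was lost with an offset of 50 (log2 difference 0.99) and without background correction (0.72). The second ID1 probe was at least 3.48-fold higher, a bound set by the lowest intensity among detected probes on the untreated array, since the probe itself was not detected there.

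CHIR99021 alone separated the paralogs. ID2 was 3.70-fold higher than in untreated cells (log2 difference 1.89, rank 9 of 10747), and its second probe gave 3.60-fold. Without background correction it missed the call at 0.91. ID3 was 1.93-fold higher (0.95, rank 53), just short of the call, which it passed with median scaling (1.03) and without scaling (1.01). ID1 went the other way and was 2.00-fold lower: its log2 difference of -0.999 was just short of the call and ranked 64 from the bottom. The scatter of like genes was 0.327 around ID2 and 0.256 around ID1 and ID3. Of the 3 measured ID genes 1 was called higher and none lower, where 0.335% of all measured genes were higher and 0.586% lower. On this log2 scale the ID1 difference minus that of ID2 was -2.89, ID1 minus ID3 was -1.95, and ID2 minus ID3 was 0.94.

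With both treatments ID2 differed most from untreated cells. It was 18.1-fold higher (log2 difference 4.18, rank 4 of 10825), against 7.72-fold for ID1 (2.95, rank 6) and 6.63-fold for ID3 (2.73, rank 7). All 3 measured genes were called higher, where 0.628% of all measured genes were higher and 0.656% lower. The second probe of ID2 gave 11.1-fold, and that of ID1 at least 3.50-fold. The size for ID2 rests on a faint signal in untreated cells: over the processing alternatives its main probe gave from 6.52-fold to 18.5-fold, while ID1 ran from 7.04-fold to 7.72-fold and ID3 from 5.95-fold to 6.63-fold. Without background correction the log2 difference of ID2 was 2.71, below that of the main ID1 probe under any alternative (2.82 at least). For the main probes of ID1, ID2 and ID3 the sign of each difference was the same with quantile scaling, median scaling and none.

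BMP4 was also compared in the presence of CHIR99021, on 2 arrays that the comparison of BMP4 with untreated cells does not use. ID1 was 15.4-fold higher with both treatments than with CHIR99021 alone (log2 difference 3.95), first of 10573 measured genes. ID2 was 4.89-fold higher (2.29, rank 4) and ID3 3.43-fold higher (1.78, rank 8). All 3 were called higher, where 0.331% of all measured genes were higher and 0.0851% lower. The second probes gave 3.10-fold for ID2 and at least 3.28-fold for ID1. By the main probes the order was ID1, ID2, ID3, where BMP4 alone gave ID1, ID3, ID2, but the second ID2 probe lay below ID3 in both comparisons.

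In the presence of BMP4, adding CHIR99021 was followed by higher ID2 and by nearly the same ID1. ID2 was 6.01-fold higher with both treatments than with BMP4 alone (log2 difference 2.59, rank 5 of 10732), and its second probe gave 3.96-fold. ID3 was 1.33-fold higher (0.41, rank 931, scatter of like genes 0.205). ID1 was 1.01-fold higher (0.02), in the middle of all genes at rank 5056, and its second probe, detected on both of these arrays, gave 0.01. Of the 3 measured genes 1 was called higher, where 0.345% of all measured genes were higher and 0.457% lower. The ID1 difference under CHIR99021 was thus -0.999 without BMP4 and 0.02 with it.

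**Figure D2:**
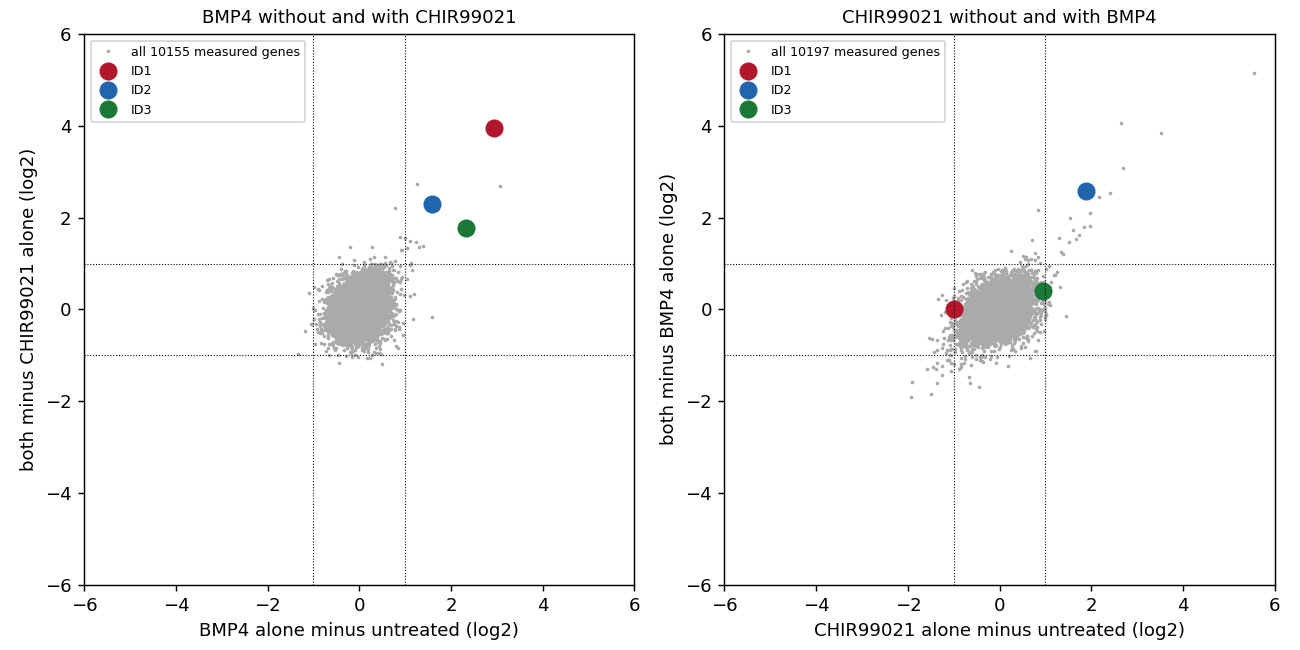
Each point is a gene, with the log2 difference for a treatment alone against untreated cells on the x axis and for the same treatment on top of the other one on the y axis (BMP4 left, 10155 genes; CHIR99021 right, 10197 genes; 1 array per group; dotted lines at 1 and -1). For BMP4 all 3 ID genes lie in the upper right corner, and for CHIR99021 ID2 lies there at 1.89 and 2.59 while ID1 lies at -0.999 and 0.02.

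The departure from additivity, the log2 value of both treatments minus BMP4 minus CHIR99021 plus untreated, asks whether fold changes multiply. It was 1.02 for ID1 (rank 76 of 11282, scatter of like genes 0.316), 0.70 for ID2 (rank 400, scatter 0.344) and -0.54 for ID3 (787 from the bottom). ID1 alone passed the call, where 0.700% of all measured genes were higher and 0.629% lower. For ID1 it is the difference between 0.02 on top of BMP4 and -0.999 with CHIR99021 alone. The second probes gave 0.28 for ID1, where the untreated and CHIR99021 arrays did not detect it, and 0.14 for ID2. The ID1 value was below 1 with an offset of 50 and without background correction, and that of ID2 was above 1 with each, so that the call of each depended on the processing.

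The linear scale was added after the values had been seen. On it, the ratio of both treatments to the sum of the single treatments was larger for ID2 than for ID1 and ID3. The excess in intensity units was not larger for ID2 than for the main ID1 probe or ID3. The sum of the single treatments was taken as BMP4 plus CHIR99021 minus untreated. Where each single treatment raises a gene, the ratio of both treatments to this sum exceeds 1 even if the fold changes multiply. This does not hold for ID1, which was lower with CHIR99021 alone. On the log2 scale the departure from additivity was 0.70 for the main ID2 probe and only 0.14 for the second. In the authors' normalized intensities ID2 reached 588 with both treatments, where the sum was 176, a ratio of 3.35, and its second probe gave 341 against a sum of 158, a ratio of 2.16. ID1 reached 5271 against a sum of 4809 (ratio 1.10), and ID3 4558 against 4059 (ratio 1.12). In the intensities normalized here the ratios were 3.37 and 2.17 for the ID2 probes, 1.09 for ID1 and 1.12 for ID3. The intensity that CHIR99021 added to ID2 was 504 in the presence of BMP4 and 91.0 in its absence, again on the authors' scale. For ID1 the step was 119 in the presence of BMP4 and -344 in its absence, and for ID3 1140 and 642.

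**Figure D3:**
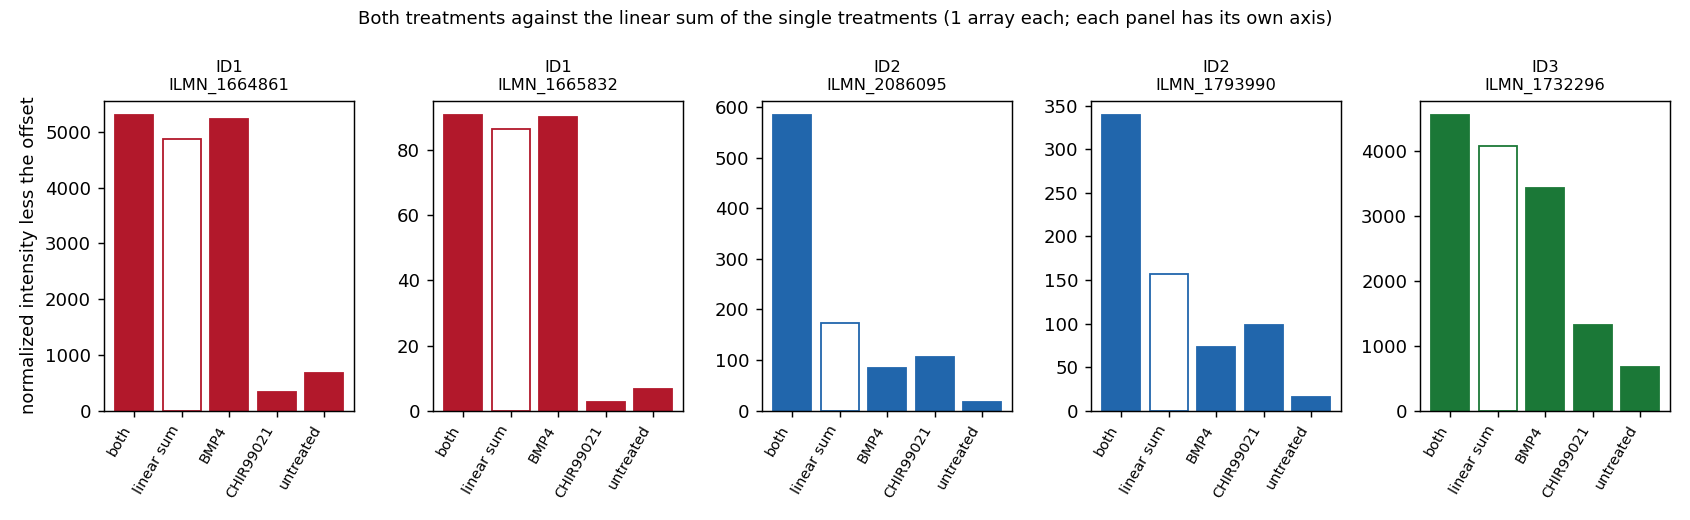
Normalized intensity less the offset (linear, y axis from 0, own axis in each panel) of the ID1, ID2 and ID3 probes with both treatments, as the linear sum of the single treatments (open bar), and with BMP4, CHIR99021 and no treatment (1 array each, no error bars). The second ID1 probe was not detected with CHIR99021 alone or in untreated cells, so its linear sum rests in part on background values. The bar for both treatments exceeds the sum 3.37 and 2.17 times for the ID2 probes, and 1.09 and 1.12 times for the main ID1 probe and ID3.

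The antisense gene ID2-AS1, whose start lies head to head with that of ID2, was at or near background on every array. Its probe, ILMN_1880113, had normalized log2 intensities of 4.67 with both treatments, 5.47 with BMP4, 4.82 with CHIR99021 and 4.64 in untreated cells. It was detected only with BMP4 alone, at a detection p of 0.0013. Its raw intensity there was 112, where the lowest of any detected probe on that array was 100, so its pattern cannot be set against that of ID2.

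The genes nearest to each ID gene in pattern were found by the Euclidean distance over the 3 log2 differences from untreated cells, which share the untreated array. Among 11279 other detected genes they were HAND1, TFAP2A, SMAD6, CBLN1 and PDE4B for ID1, MSX1, EOMES, NKD1, MIXL1 and GAD1 for ID2, and PDE4B, CBLN1, HAND1, TFAP2A and PAPPA for ID3. Of these, MSX1 and GAD1 alone were detected on all 4 arrays. The others entered through their higher arrays and rest in part on values at background. They are named nearest first, but nothing is drawn from their order or distances. The search was therefore repeated, after the values had been seen, among the 9300 other genes detected on all 4 arrays. Nearest to ID2 was again MSX1, a homeobox gene, at a distance of 1.30, beside a size of 4.85 for the ID2 pattern itself. MSX1 had log2 intensities of 10.67 with both treatments, 6.59 with BMP4, 8.45 with CHIR99021 and 5.81 in untreated cells, so that its order of arrays was that of ID2. The next was GAD1, a glutamate decarboxylase, at 2.39, followed by AXIN2 at 2.67, PLPP3 at 2.73 and NODAL at 2.77. With BMP4 alone the log2 difference was -0.23 for AXIN2, 0.49 for PLPP3 and -0.29 for NODAL, where ID2 had 1.59. The 5 genes nearest to ID1 were EMILIN2, BAMBI, FGFR3, VENTX and PRRX2, at distances of 2.53 to 2.78 beside a size of 4.27. None of these genes detected on all 4 arrays came as close to ID1 as MSX1 to ID2. In the first search HAND1 lay at 0.92 from ID1, but it was detected on only 2 arrays. The 5 nearest to ID3 were EMILIN2, NPFFR2, VENTX, KLF10 and GAD1, at 1.80 to 2.12 beside a size of 3.71. Among the ID genes the distances were 3.41 between ID1 and ID2, 2.05 between ID1 and ID3 and 1.87 between ID2 and ID3.

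The genes for the partners of the ID proteins were followed as lists. In any list a gene that was detected only on its high array had to differ, so the medians given here are descriptions. Of all measured genes, 0.0851% to 0.700% were called higher, or called lower, in a comparison. No call is therefore the usual outcome for a list this short. All 3 E protein genes were detected on every array, and none was called in any comparison, with list medians between -0.15 and 0.06. TCF3 (E2A) had log2 intensities of 8.69 with both treatments, 8.69 with BMP4, 9.04 with CHIR99021 and 8.84 in untreated cells. TCF12 (HEB) had 7.29 with both treatments, 7.46 with BMP4, 7.25 with CHIR99021 and 7.50 in untreated cells. TCF4 (E2-2) had 6.73 with both treatments, 6.77 with BMP4, 6.77 with CHIR99021 and 6.71 in untreated cells. Of 25 genes for tissue-specific bHLH partners, 23 were on the array and 5 or 6 were measured in a comparison, with medians between -0.32 and 0.45. HAND1, a bHLH factor of lateral mesoderm and trophoblast, was the only one called, at least 6.53-fold higher with BMP4 and at least 4.27-fold higher with both treatments than in untreated cells, and at least 4.00-fold higher with both than with CHIR99021. Of 4 genes for the turnover of ID proteins, USP1, a deubiquitinase that stabilizes them, COPS5, a subunit of the COP9 signalosome, and FZR1, an activator of the anaphase-promoting complex, were measured and none was called. The medians lay between -0.12 and 0.08, and SMURF2, a ubiquitin ligase, was not detected.

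The HES and HEY genes encode bHLH repressors that also meet ID proteins. Of 10 genes 4 to 7 were measured per comparison, and HES1 alone was called, with list medians between -0.54 and 0.64. HES1 had log2 intensities of 7.74 with both treatments, 7.50 with BMP4, 6.39 with CHIR99021 and 7.72 in untreated cells. With CHIR99021 alone HES1 was 2.52-fold lower than in untreated cells, and with both treatments 2.55-fold higher than with CHIR99021, with a departure from additivity of 1.57. Of all measured genes 0.586% were lower with CHIR99021 alone, 0.331% higher with both treatments than with CHIR99021, and 0.700% higher in the departure. Like ID1, HES1 was lowest with CHIR99021 alone, as was BAMBI, but BMP4 alone was not followed by higher HES1. Of 7 cyclin-dependent kinase inhibitors, growth brakes of which E proteins activate some, 6 were measured, with medians between -0.05 and 0.20. CDKN1C alone was called, 2.61-fold lower with both treatments than in untreated cells, where 0.656% of all measured genes were lower.

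The BMP pathway itself was followed from its receptors to its feedback genes. None of the 5 or 6 measured genes for BMP receptors and SMAD transducers was called in any comparison, with list medians between -0.07 and 0.23. With 0.0851% to 0.700% of all measured genes called per direction, this is the usual outcome for so few genes. Of 5 measured BMP feedback inhibitors, SMAD6 and the pseudoreceptor BAMBI were called higher with BMP4 (2.78-fold and 2.37-fold), with both treatments against untreated cells (3.00-fold and 2.02-fold) and with both against CHIR99021 (at least 3.72-fold and 2.79-fold). Of all measured genes 0.203%, 0.628% and 0.331% were higher in these comparisons. SMAD7 had log2 differences of 0.27, -0.01 and 0.42 in the same comparisons. The SMAD6 value against CHIR99021 is a lower bound, which exceeded the 3.43-fold of ID3 and cannot be ranked against ID1. Each of the other SMAD6 and BAMBI folds was below those of ID1 and ID3 in the same comparison.

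Other early BMP-SMAD target genes also differed among themselves. Of 13 genes on this list, HAND1 and TFAP2A were called higher with BMP4 among 5 measured, and MSX1 and ZNF503 with CHIR99021 among 4 measured. MSX1, HAND1 and TFAP2A were called with both treatments against untreated cells among 9 measured. Of all measured genes 0.203% were higher with BMP4, 0.335% with CHIR99021 and 0.628% with both treatments. Over all comparisons the medians of the list lay between 0.60 and 0.97. On top of BMP4, CHIR99021 was followed by 16.9-fold higher MSX1 and 2.73-fold higher TFAP2A, and HAND1 had log2 intensities of 7.03 with both treatments and 7.64 with BMP4. MSX1, detected on all 4 arrays, had a departure from additivity of 1.43. TFAP2A, detected on 2 arrays, and GATA3, detected on 1, also passed the call, but in part through values at background. For the same reason the bound for TFAP2A with BMP4 was only 1.75-fold, and that for ZNF503 with CHIR99021 1.81-fold.

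WNT feedback genes were compared with ID2, which was higher with CHIR99021 as well. Of 7 measured, AXIN2, SP5, NKD1, LEF1 and ZNRF3 were called higher with CHIR99021 alone, where 0.335% of all measured genes were higher. The list median was 1.60. Only 3 genes of the list were detected with BMP4 alone or in untreated cells. Most of the 7 therefore entered through the CHIR99021 array alone, and the count and median rest in part on that filter. LEF1 was not detected in untreated cells and its bound was 1.97-fold. NKD1 was not detected there either, at 4.35 on the log2 scale, where the lowest detected probe had 4.93. None of the 3 measured was called with BMP4 alone, where 0.203% of all measured genes were higher and 0.0920% lower. No call is the usual outcome for so few genes. ID2 was 3.01-fold higher in that comparison. AXIN2, which marks active canonical WNT signaling, had log2 intensities of 10.26 with both treatments, 7.73 with BMP4, 10.36 with CHIR99021 and 7.96 in untreated cells. Its log2 difference for BMP4 was -0.23 without CHIR99021 and -0.10 with it, and neither was called.

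**Figure D4:**
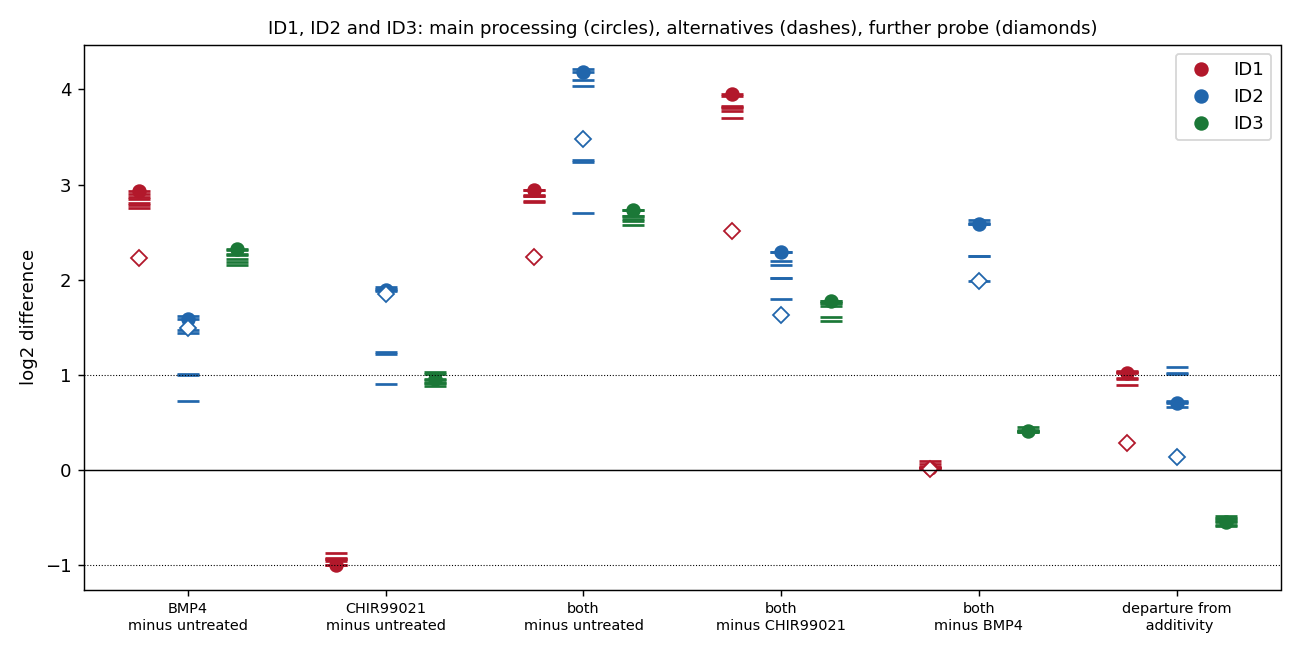
Log2 differences (y axis) of ID1, ID2 and ID3 in each comparison (x axis) under the main processing (circles), the other ways of processing (dashes) and from the further probe of ID1 and ID2 (diamonds, none for ID1 with CHIR99021 alone, where that probe was not detected), with dotted lines at the call of 1 and -1. The main ID2 probe runs from 2.71 to 4.21 for both treatments against untreated cells, where ID1 runs from 2.82 to 2.95, and ID3 with CHIR99021 runs from 0.89 to 1.03.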

How the data were processed

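HuES6 cells were profiled in 4 groups of 1 array, grouped by the treatment in the labels. The members and gene lists were chosen with earlier results of these data known. The authors deposited a raw linear intensity and a detection p-value per probe from GenomeStudio (version not given in the sources used here), and a second table of normalized intensity values. The study's methods name background subtraction and cubic spline normalization for it. Each of its columns has a median of 5.18 and about 26.7% of values at 0. Raw intensities, with array medians of 88.7 to 93.6, were background-corrected by normexp (limma 3.58.1, R 4.3.3) using the detection p-values, which move in steps of 1 in 770. An offset of 16, quantile normalization and log2 followed, and the offset shrinks differences of dim probes. Precision is limited by the number of arrays.

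Gene names came from a platform annotation, updated by Entrez ID (30073 of 30120 listed probes matched), and 17201 probes were not listed. A gene was represented by its brightest probe on average, and its other probes are given as second or further probes. Named genes were the 4 ID genes, called or defining members of fixed lists, and the 5 genes nearest to each ID gene. Where 1 array did not detect a probe, "at least" sets the brighter value against the higher of the dim value and the lowest detected intensity on the dim array. Promoters were matched by symbol for all 4 genes. Alternatives were an offset of 50, no background correction, median scaling, no scaling, the authors' values with 16 or 50 added, a detection p of 0.05, a call at 1.5 and further probes.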

Additional observations from a re-analysis of the deposited data

Results flagged for a closer look

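ID1 was lower under CHIR99021 without BMP4 and nearly unchanged with it. With CHIR99021 alone its log2 difference from untreated cells was -0.999, and with both treatments its difference from BMP4 alone was 0.0202, close to 0. The values came from 1 array per group and the difference between them was not tested. The second ID1 probe was not detected with CHIR99021 alone or in untreated cells.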

How the results depend on the processing

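Of 119 alternative log2 differences of ID1, ID2 and ID3, 107 kept their direction and call, 7 lost the call, 5 gained it and 0 turned a called direction. A detection p of 0.05 is not among them, since it cannot change genes detected on every array. ID2 lost it for BMP4 against untreated cells with an offset of 50 (0.99) and without background correction (0.72), and for CHIR99021 without background correction (0.91). ID3 gained it for CHIR99021 with median scaling (1.03) and no scaling (1.01). The departure from additivity of ID1 was below 1 with an offset of 50 (0.95), without background correction (0.89), with 50 added to the authors' values (0.96) and by the further probe (0.28), while that of ID2 passed it under the first 3 (1.02, 1.08 and 1.00).

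Counts of called genes over the whole array depended more on the processing. In the order offset of 50, no background correction, 50 added to the authors' values and a call at 1.5, they were 8, 7, 9 and 5 for BMP4 against untreated cells (main value 32), 34, 21, 34 and 19 for CHIR99021 (99), 62, 40, 65 and 38 for both treatments (139), 17, 13, 17 and 10 for both against CHIR99021 (44), 29, 19, 30 and 24 for both against BMP4 (86), and 13, 7, 13 and 9 for the departure (150). With 16 added to the authors' values 72, 86 and 249 genes were called for BMP4, both against CHIR99021 and the departure. With median scaling the genes called higher and lower were 16 and 21 for BMP4 (main 22 and 10), 53 and 119 for both treatments (main 68 and 71) and 26 and 17 for both against CHIR99021 (main 35 and 9), and without scaling 12 and 28, 45 and 153, and 24 and 27. In these 3 comparisons median scaling put the median of all genes at -0.12, -0.11 and -0.11, and no scaling at -0.16, -0.18 and -0.15.

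No paired analysis was possible because each group held 1 array, and leaving out a replicate was not possible for the same reason. ID4 and the second ID1 probe without BMP4 were at background, so changes there were not detectable. The cause of these shifts was not tested.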
